A study of Mus musculus with 232 samples.

Results

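Microglia are the resident macrophages of the brain, and 428 of the 24185 cells captured from the mouse dentate gyrus carried the authors' cluster name MiCajal-Retziusoglia, a spelling with the name of another cluster set inside the word microglia. All 428 cells with exactly that name were taken, at all 8 ages. The dentate gyrus is the entry region of the hippocampus, where granule neurons continue to be born after birth. Cells were captured on the 10X Genomics Chromium system, which tags each captured transcript with a unique molecular identifier (UMI), so that the deposited values are counts of molecules per gene and cell.

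CD-1 animals, an outbred stock, gave the cells of E16.5, P0 and P5 (perinatal ages, sex unknown) and of P18 and P23 (juvenile ages, males). C57Bl/6 females gave the juvenile age P19. The adult ages P120 (2 males and 1 female) and P132 (3 males and 1 female) came from pooled hGFAP-GFP mice, which express green fluorescent protein under a human GFAP promoter active in astrocytes and radial glia, and these cells were sorted for GFP before capture. Microglia are not known to use that promoter, and how they came through the sort was not tested. Neurons came through it as well, with 2129 adult granule cells among the 3829 cells of P132. Each age is 1 sample. Tests therefore compare ages grouped into stages. Except in the comparison with endothelial cells, their p-values measure the spread between ages of a stage.

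Microglia come from yolk sac progenitors, enter the embryonic brain and keep themselves by division. Their survival rests on the receptor CSF1R and its ligands IL34 and CSF1, while TGF-beta signalling and the transcription factors PU.1, IRF8 and SALL1 maintain their identity. Around birth they clear dying cells and prune synapses, in part through complement, and as they mature they take on a surveying state marked by P2RY12 and TMEM119.

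Numbers of microglia were 21 at E16.5, 18 at P0, 96 at P5, 7 at P18, 47 at P19, 114 at P23, 15 at P120 and 110 at P132. Their summed UMIs ran from 14620 at P18 to 475787 at P5, and the median per cell was 9304 at E16.5 and 4708 at P5 against 1839 at P19 and 3084 at P23. Ages with at least 20 microglia, E16.5, P5, P19, P23 and P132, carry the results below, and P0, P18 and P120 are given as values. 456 cell barcodes occurred in more than 1 library, 15 microglia had such a barcode, and 0 shared it with another microglial cell. Levels are given in CPM, each gene's UMIs scaled to a fixed total of 1000000 microglial UMIs at that age. A count of 0 allows a level of up to 16.3 CPM at E16.5, 6.31 at P5, 32.5 at P19, 8.08 at P23 and 14.4 at P132 (3 counts of the total, covering counting error only).

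The cells held the markers of microglia. P2ry12, a receptor for ADP that guides process movement, had a UMI in 20 of 21 microglia at E16.5, 94 of 96 at P5, 46 of 47 at P19, 113 of 114 at P23 and 92 of 110 at P132. The share of cells of non-macrophage clusters with a P2ry12 UMI lay between 0.0444% at E16.5 and 2.48% at P23. With each cell reduced to 1000 UMIs, the microglial share was 61.9% at E16.5 (95% exact binomial interval 38.4 to 81.9) and 86.0% at P23 (78.2 to 91.8). Cx3cr1, the receptor of fractalkine, was at 732, 1654, 1388, 1234 and 2288 CPM at the 5 ages, and Csf1r at 569.6, 1013, 1702, 1749 and 1048 CPM. Tmem119 stood at 244 and 330 CPM at the perinatal ages and at 987 and 1231 CPM at the juvenile ages.

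Marker lists of other immune cells summed to between 0 and 307 CPM at the 8 ages, against 7953 to 21879 CPM for 8 microglial markers. Of 9 markers of border-associated macrophages, Cd163, Lyve1, Cbr2 and Ms4a7 had 0 UMIs in all 428 cells, and the others had UMIs. The summed level of the 9 genes ran from 249.6 to 307 CPM at the perinatal ages, from 0 to 97.6 at the juvenile ages and from 38.3 to 43.4 at the adult ages. The highest non-macrophage cluster with 20 or more cells held 263 CPM at E16.5, 2.63 at P0 and 47.6 at P5. Microglia, at 249.6, 307 and 277 CPM, were thus below it at E16.5 and above every such cluster at P0 and P5. Mrc1, the mannose receptor, was at 54.3 CPM at E16.5, 198 at P0, 105 at P5, 21.7 at P19 and 16.2 at P23, and did not pass the test between stages (adjusted p = 0.0813). Ly6c2, Chil3, Hp and Ly6g of the 8 monocyte and neutrophil genes had 0 UMIs, and so did all 5 lymphocyte genes in the table. The monocyte and neutrophil sum ran from 0 to 21.7 CPM at the 7 earlier ages and was 105 CPM at P132, all of it Plac8 (22 UMIs), with 63.6% in 1 cell. The authors' separate macrophage cluster, PVM, held 1 to 18 cells per age and was left out of the comparison with other clusters.

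Genes that set microglia apart were those of the macrophage and microglial programme. Averaged over the 5 ages, 632 genes reached 200 CPM in microglia. Of these, 153 were higher in microglia than in every one of the 22 non-macrophage clusters, and 51 were at least 10 times higher than in the highest of them. The cells had been clustered on these same counts, so these values describe the cluster and carry no test. Among the 15 genes with the largest ratio were Mpeg1, a pore-forming protein of phagocytes; the 3 chains of complement C1q; Fcer1g and Tyrobp, the signalling adaptors of Fc receptors and of TREM2; Crybb1; the protease cathepsin S (Ctss); Bin2; the chemokines Ccl3 and Ccl4; Gpr34; Aif1, which encodes IBA1; and Selplg. C1qa averaged 3999 ± 1777 CPM (SD over 5 ages) against 25.5 CPM in the highest other cluster, NFOL, a ratio of 157. Selplg averaged 866 ± 659 CPM against 9.30 CPM in CA3-Pyr, a ratio of 93.1. With all cells pooled over ages in place of a mean of ages, 50 genes passed the ratio of 10 and 10 of the 15 leading genes were shared.

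**Figure D1:**
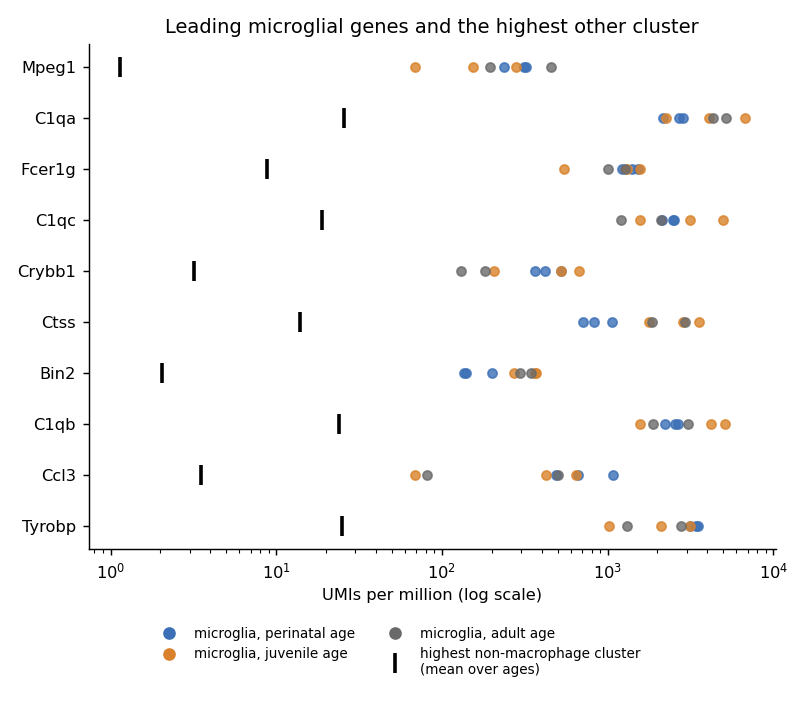
Levels of the 10 genes with the largest ratio of microglia to the highest non-macrophage cluster, in CPM on a log axis. Each point is the summed microglia of 1 of 8 ages, coloured by stage, and the bar is the mean over ages of the highest other cluster. Every microglial point lies to the right of its bar, and the lowest C1qa point (2165 CPM, at E16.5) lies above a bar at 25.5 CPM.

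Microglial genes often carry the short purine-rich box of PU.1 (encoded by Spi1, at 407, 368, 217, 372 and 229.7 CPM at the 5 ages). The letters GAGGAA, on either strand, were therefore searched in the 250 bases before each RefSeq start (GRCm38.p6). They occurred in 7639 of 32851 windows of all genes (23.3%). Of the 15 leading genes 8 matched the RefSeq promoter table by symbol, and 5 of their 8 windows held the box. Among the genes that differed between stages (below), 32 of 53 higher and 17 of 24 lower genes matched, with the box in 18 of 52 windows (34.6%) and in 7 of 21 windows (33.3%). The AP-1 letters TGANTCA, searched on both strands, were in 6.75% of all windows and in 4 of 52 and 1 of 21 windows of these genes. A match describes letters, not a bound site. The 4 windows below belong to named genes, hold the box (in capitals, TTCCTC where it lies on the other strand) and overlap no annotated exon. They are shown for a gene higher at the perinatal ages (Spp1), for one higher at the juvenile ages (Ctss) and for 2 others of the 15 leading genes (C1qb and Ccl3). They lie at chr5:104434861-104435110 on the plus strand (Spp1), chr3:95526536-95526785 on the plus strand (Ctss), chr4:136886201-136886450 on the minus strand (C1qb) and chr11:83649379-83649628 on the minus strand (Ccl3), each ending at the base before the annotated start.
Spp1: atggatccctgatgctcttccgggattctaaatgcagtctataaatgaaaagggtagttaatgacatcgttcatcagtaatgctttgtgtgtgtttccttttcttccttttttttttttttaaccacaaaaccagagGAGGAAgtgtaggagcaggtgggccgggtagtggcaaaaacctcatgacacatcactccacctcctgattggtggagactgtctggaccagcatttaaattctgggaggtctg
Ctss: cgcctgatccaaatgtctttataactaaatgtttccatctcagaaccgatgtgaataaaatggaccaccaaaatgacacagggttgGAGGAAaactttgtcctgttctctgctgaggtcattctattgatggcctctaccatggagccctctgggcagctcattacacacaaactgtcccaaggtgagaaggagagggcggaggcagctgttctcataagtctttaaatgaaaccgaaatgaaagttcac
C1qb: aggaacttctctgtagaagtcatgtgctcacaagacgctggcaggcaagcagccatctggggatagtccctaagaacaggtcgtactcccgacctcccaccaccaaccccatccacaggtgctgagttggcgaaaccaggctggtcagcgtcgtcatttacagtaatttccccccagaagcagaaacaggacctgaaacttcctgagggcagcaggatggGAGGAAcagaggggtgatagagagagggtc
Ccl3: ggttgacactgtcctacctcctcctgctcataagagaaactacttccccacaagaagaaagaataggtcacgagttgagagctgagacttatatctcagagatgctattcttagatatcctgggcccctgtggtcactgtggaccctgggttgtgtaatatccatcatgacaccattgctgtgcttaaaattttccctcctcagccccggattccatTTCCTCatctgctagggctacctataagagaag

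Microglia made up 0.919% of all cells at E16.5, 0.377% at P0, 2.16% at P5, 0.258% at P18, 2.26% at P19, 4.22% at P23, 1.10% at P120 and 2.87% at P132. The mean of the 3 perinatal ages was 1.15% ± 0.917 (SD, n = 3) and that of the 3 juvenile ages 2.25% ± 1.98 (SD, n = 3). The stages overlapped, since P18 was the lowest age of all, and the difference of 1.09 percentage points was within the spread between ages (exact permutation test, two-sided, p = 0.600, where 0.1 is the smallest value that 3 against 3 can give). Counted against the non-neural clusters alone, the means were 32.1% and 27.1%, the opposite order (p = 0.700). Without granule and pyramidal cells in the denominator they were 2.47% and 5.57%, a difference of 3.10 points (p = 0.300). The share depends on which other cells survived dissociation, and the adult share may also depend on the GFP sort. Neither part was tested.

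**Figure D2:**
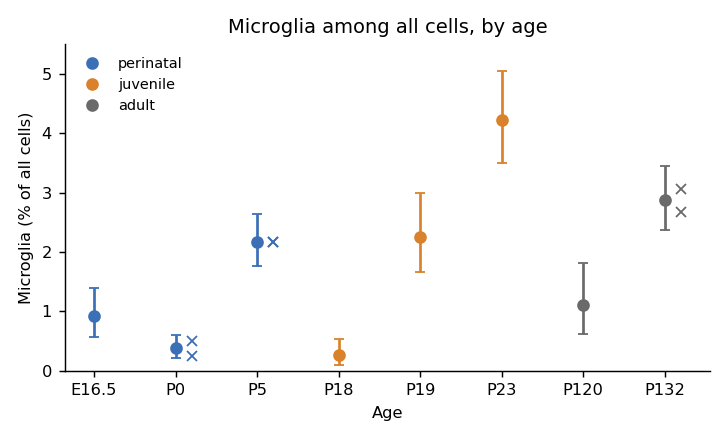
Share of microglia among all cells captured at each of 8 ages, in percent, with 95% exact binomial intervals that cover counting error only. Crosses mark the separate libraries at P0, P5 and P132. P23 is highest at 4.22% and the juvenile age P18, at 0.258%, is lowest.

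Between E16.5 and P5 on one side and P19 and P23 on the other, 5 homeostatic genes and 3 immediate early genes rose in microglia, and 4 genes of the activated state around birth and 2 cycling genes fell. Of 3757 genes tested, 77 differed at an adjusted p under 0.05 in edgeR's quasi-likelihood test (2.05%), 53 higher (1.41%) and 24 lower (0.639%) at the juvenile ages, and 638 had an unadjusted p under 0.05. The median log2 fold change of all tested genes was 0.02. Log2 fold changes below are juvenile minus perinatal, with their SE. The count rests on 2 ages a stage: it was 302 without P5, 126 without E16.5, 115 without P19 and 80 without P23, and without P23 only 30 of the 77 were among the 80. It was 0 when the tenth of cells richest in RNA of other types was left out (550 at unadjusted p under 0.05, smallest adjusted p = 0.0581) and 0 with every cell reduced to 1000 UMIs (187 of 1064, smallest adjusted p = 0.0507). All 67 and all 38 of the 77 genes that could then be tested kept their direction. These genes were picked on the same cells, so a kept direction is no independent check. DESeq2 called 81 genes, 27 higher and 54 lower, of which 15 were shared. It gave no adjusted p for 62 of the 77.

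All 16 tested homeostatic genes, those that mark surveying microglia, had a positive log2 fold change (median 1.22), and 5 passed the test, among them Cst3, Selplg, Tmem119 and Ctss. Selplg, the P-selectin ligand, was at 86.8 CPM at E16.5 and 246 at P5 against 1475 at P19 and 1083 at P23 (log2 fold change 2.85 ± 0.49, adjusted p = 0.0142). P0 (49.6 CPM), P18 (958), P120 (2604) and P132 (1441) lay on the side of their neighbours in age, so that the perinatal and later ages did not overlap. Tmem119 rose by 1.94 ± 0.41 (adjusted p = 0.0287), and its other ages were at 129 CPM at P0, 479 at P18, 2192 at P120 and 1206 at P132. Ctss rose from 1069 and 713 CPM to 2873 and 3586 (1.87 ± 0.37, adjusted p = 0.0230). Tmem119 missed the threshold without E16.5 (adjusted p = 0.0768) or without P23 (0.116), and Ctss without P23 (0.111).

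Cst3, which encodes cystatin C, an inhibitor of cathepsins, was the homeostatic gene with the largest fold change. Its level was 4719.8 CPM at E16.5, 4203 at P0 and 7896 at P5, then 47538 at P18, 26586 at P19, 104217 at P23, 51387 at P120 and 51608 at P132. The 3 perinatal ages were below all 5 later ages, and Cst3 alone supplied 10.4% of microglial UMIs at P23 (cells not reduced). The log2 fold change was 3.41 ± 0.53 (adjusted p = 0.00914), and between the P5 and P23 libraries, which share a cell-name prefix, it was 3.77. Other clusters also held Cst3, Astro-juv at 29751 CPM at P23 and Immature-Astro at 16405 CPM at P5, the latter above microglia.

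Several defining genes did not pass the test. P2ry12 was at 830, 1689.8, 2266 and 2646 CPM at the 4 ages (log2 fold change 0.95 ± 0.40, adjusted p = 0.243). Cx3cr1 overlapped between stages (0.10 ± 0.42, adjusted p = 0.936), and so did Fcrls (0.09 ± 0.35, adjusted p = 0.936). Fcrls then stood at 282 CPM at P120 and 139 at P132, below the 889 to 1420.4 CPM of the 6 earlier ages. Of 11 tested microglial transcription factors, including Spi1, Irf8, Sall1 and Runx1, 0 passed the test (median log2 fold change 0.11). Sall1, which marks microglia among macrophages, was at 125, 248, 195, 216 and 215 CPM at the 5 ages and at 2.90 CPM in PVM.

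**Figure D3:**
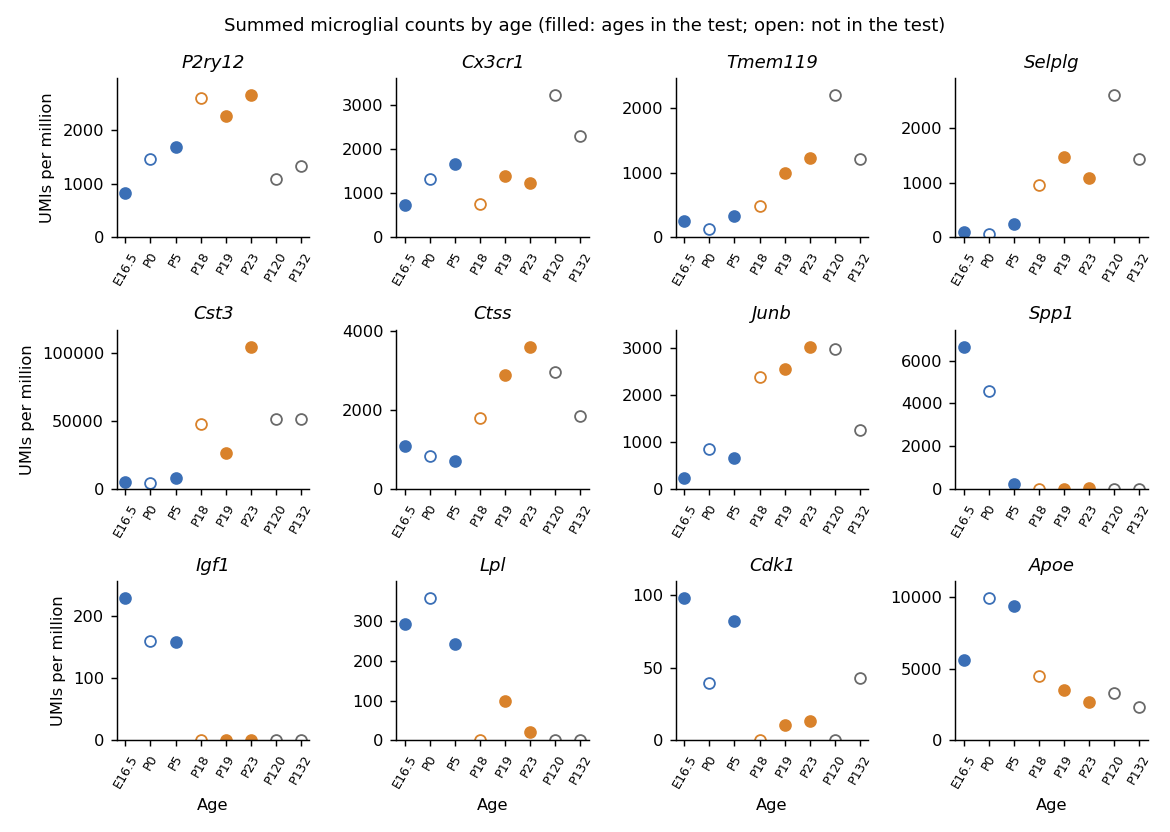
Levels of 12 genes in summed microglia at 8 ages, in CPM on linear axes from 0, 1 point per age. Filled points are the 4 ages in the test and open points are P0, P18, P120 and P132. Selplg, Cst3 and Junb are low at the 3 perinatal ages, Igf1 has UMIs at these ages only, and the Cx3cr1 levels of perinatal and juvenile ages overlap.

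Genes of the activated state that microglia show around birth moved the other way. Of 10 tested genes of that list, 4 fell (Spp1, Igf1, Lpl and Fabp5), 0 rose and 8 had a negative log2 fold change (median -1.88). Igf1, a growth factor, was at 228 CPM at E16.5, 159 at P0 and 158 at P5 and had 0 UMIs at all 5 later ages. Summed over the stages this is at least 27.4-fold higher at E16.5 and P5 than at P19 and P23, counting 3 UMIs for the 0 of the juvenile stage (adjusted p = 0.00566). Igf1 UMIs were spread over 9 of 21 cells at E16.5 and 27 of 96 at P5. The highest other cluster held 22.1 CPM of Igf1 at E16.5 (VLMC). Immature-GABA held 159 at P0 and 281 at P5, above microglia at both ages, though at P0 the 2 levels are equal when rounded. Lpl, lipoprotein lipase, was at 293 and 242 CPM against 97.6 and 21.6 (-2.57 ± 0.57, adjusted p = 0.0355, and 0.313 without P23). Fabp5, a fatty acid carrier, was at 1079.6 and 187 CPM against 75.9 and 53.9 (-3.31 ± 0.71, adjusted p = 0.0312). At P5, P19 and P23, 14 other clusters held more Fabp5 than microglia.

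Spp1, which encodes osteopontin, a secreted matrix protein bound by integrins, was at 6640.2 CPM at E16.5, 4579 at P0 and 210.2 at P5. It had 0 UMIs at P18, P19 and P120, 24.3 CPM at P23 and 4.79 CPM at P132. The log2 fold change was -7.49 ± 1.33 (adjusted p = 0.0150) and -3.05 between the P5 and P23 libraries alone. Few cells carried it. UMIs were found in 9 of 21 microglia at E16.5, 5 of 18 at P0, 11 of 96 at P5, 0 of 47 at P19 and 5 of 114 at P23, with at most 478 UMIs in a cell at E16.5 and at most 3 at P23. The single highest cell held 39.1% of the E16.5 UMIs, and without it the level was 4235 CPM. At P0 the highest cell held 59.3%, with 2010.0 CPM left without it, and at P5 41.0%, with 127 CPM left. The highest level of another cluster at E16.5 was 40.3 CPM, in VLMC, and 1.64% of all non-macrophage cells of that age had a UMI.

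Lipid-handling genes that passed the test also fell. Of 8 tested there were 2, Lpl and Plin2, a coat protein of lipid droplets (429 and 141 CPM against 54.2 and 32.3, log2 fold change -2.79 ± 0.60, adjusted p = 0.0312, and 0.0897 without P23). Apoe, the main lipid carrier of the brain, was at 5588, 9922 and 9384 CPM at the 3 perinatal ages and between 2312 and 4514 CPM at the 5 later ages, and missed the threshold (-1.31 ± 0.34, adjusted p = 0.0616). Apoc1, a small apolipoprotein, fell from 201 and 219 CPM to 54.2 and 13.5 (-3.09 ± 0.57, adjusted p = 0.0170, and 0.174 without P23). Gpx3, a secreted glutathione peroxidase, was at 114 and 98.8 CPM and had 0 UMIs at the juvenile ages, at least 15.9-fold higher at the perinatal ages. Psat1, an enzyme of serine synthesis, fell by 2.86 ± 0.61 on the log2 scale (adjusted p = 0.0304). Apoc1, Gpx3, Plin2, Spp1 and the ribosomal protein gene Rpl10a were the 5 of 24 fallen genes that were higher in microglia than in every other cluster at both E16.5 and P5.

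Division genes were lower at the juvenile ages where they passed the test. All 11 tested of 15 cycling genes had a negative log2 fold change (median -2.34), and Cdk1, the kinase of mitosis, and Birc5, survivin, passed the test. Cdk1 had 18 and 39 UMIs at E16.5 and P5 against 1 and 5 at P19 and P23 (log2 fold change -2.71 ± 0.59, adjusted p = 0.0313). Its call was lost without P5 (adjusted p = 0.137) or P23 (0.161), and that of Birc5 without P23 (0.172). Cenpa, the centromeric histone, fell from 293 and 151 CPM to 32.5 and 26.9 (-2.88 ± 0.53, adjusted p = 0.0170, and 0.0590 without P23). With cells reduced to 1000 UMIs, 6 of 21 cells at E16.5, 12 of 96 at P5, 3 of 47 at P19, 3 of 114 at P23 and 7 of 110 at P132 held 3 or more UMIs of the 15 genes. With 1 or more such UMIs the numbers were 11, 35, 4, 12 and 14 cells. Granule cells of the same ages, reduced in the same way, held 3 or more such UMIs in 0 to 0.0880% of cells.

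Immediate early genes, switched on within minutes of a stimulus, and heat shock genes were tested as 14 genes. Junb, Jun and Atf3 rose, 0 fell, and the median log2 fold change was 1.55. Junb was at 233 and 649 CPM against 2569.7 and 3031 (2.63 ± 0.47, adjusted p = 0.0150), with 852 at P0 and 2394, 2995 and 1249 at P18, P120 and P132. Jun rose by 2.06 ± 0.46 (adjusted p = 0.0357) and Atf3 by 2.32 ± 0.47 (adjusted p = 0.0271). Jun missed the threshold without E16.5 (adjusted p = 0.146) or P23 (0.0570), and Atf3 without P23 (0.183). Hspa1a, an inducible chaperone, was at 0 and 12.6 CPM against 97.6 and 59.3 (adjusted p = 0.0503). Each suspension was made by papain digestion, and the part of dissociation in these levels was not tested.

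Complement, phagocytosis, lysosome and purinergic genes are given beside the 2.05% called among all genes. Of 8 tested complement genes 0 passed (median log2 fold change 1.05). C1qa was at 2165 and 2694 CPM against 4088 and 6728 (1.16 ± 0.36, adjusted p = 0.118). Of 10 tested phagocytic and Fc receptors 0 passed (median 0.63), with Trem2, the lipid-sensing receptor, at 857, 1141, 1616 and 1714 CPM (adjusted p = 0.327). Of 15 lysosome genes 2 rose, among them Ctsh (81.4 and 58.8 CPM against 369 and 375, 2.44 ± 0.42, adjusted p = 0.0148), and 0 fell (median 0.19). Of 8 purinergic genes 0 passed (median 0.77).

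Receptors of CSF1R, CX3CR1 and TGF-beta signalling had UMIs in microglia, and their ligands differed in where they were highest. Csf1r (1.10 ± 0.39, adjusted p = 0.167) and Tgfbr1 (1.36 ± 0.39, adjusted p = 0.103), with 260.4 and 214 CPM against 661 and 569, did not pass. Among the ligands Il34 averaged 2.71 CPM in microglia and 138 CPM in its highest other cluster, VLMC, and Cx3cl1 21.6 CPM against 450.2 CPM in CA3-Pyr. Tgfb1 averaged 218 ± 91.5 CPM (SD over 5 ages) in microglia and 115 CPM in the endothelial cluster, its highest other cluster. Csf1 was at 76.0, 238 and 37.8 CPM at the perinatal ages and at 10.8 and 21.6 CPM at P19 and P23 (adjusted p = 0.285). The highest other cluster held 26.2, 16.0 and 61.3 CPM of Csf1 at the perinatal ages and 58.9 and 42.7 at P19 and P23.

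Cytokines and antigen presentation gave 1 call each. Of 10 tested cytokines and chemokines, Il1a rose from 27.1 and 18.9 CPM to 86.7 and 146 (2.51 ± 0.52, adjusted p = 0.0286, and 0.502 without P23). Ccl3 and Ccl4 overlapped or missed the threshold (adjusted p = 0.953 and 0.118). Il10 had 0 UMIs in microglia and Il1b averaged 1.80 CPM. Of 14 interferon-response genes only Bst2 passed the filter on low counts, and it did not pass the test (adjusted p = 0.894). Cd74, the chaperone of MHC class II, was called higher (4.14 ± 0.93, adjusted p = 0.0357), at 16.3 and 23.1 CPM against 813 and 59.3. A single P19 cell held 93.3% of the Cd74 UMIs of that age, and without that cell the level was 55.3 CPM. Likewise 1 cell held 96.5% of them at P120 and 1 cell 90.0% at P132, and without P19 the call was lost (adjusted p = 0.370).

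**Figure D4:**
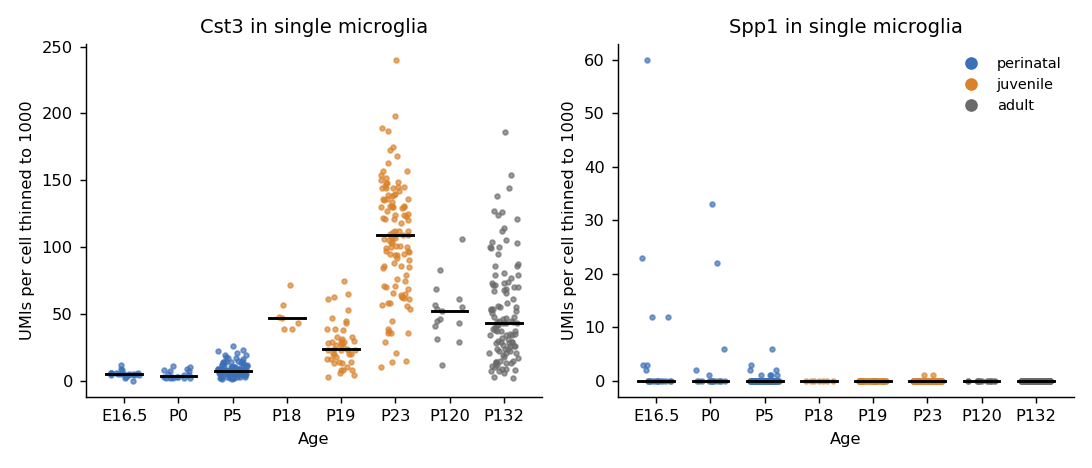
UMIs of Cst3 and Spp1 in single microglia, each cell reduced at random to 1000 UMIs, by age, with a line at the median. Median Cst3 counts are 5.0, 3.5 and 7.0 at the perinatal ages and 24.0 to 109 at the juvenile ages, and Spp1 counts above 1 occur in perinatal cells only, up to 60.

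Genes of other cell types were among those that rose. Of the 53 genes that rose, 23 were higher in microglia than in all non-macrophage clusters at both P19 and P23, among them Cst3, Selplg, Tmem119, Ctss, Ctsh, Junb, Jun, Atf3, Il1a, Socs3 and Ccrl2. Another 12 were below the median of those clusters at both ages, among them the neuronal genes Snap25, Camk2a, Dnm1 and Ncdn. Slc17a7, the vesicular glutamate transporter of excitatory neurons, rose by 5.23 ± 0.78 (adjusted p = 0.00914) to 206 and 86.2 CPM, with other clusters at a median of 103 and 70.7. Mbp (43.4 and 307 CPM), Clu (86.7 and 178), Atp1b1 (184 and 59.3), Ncdn (249 and 99.7) and Thrsp (163 and 137) also had the largest rises. Slc1a2, the glutamate transporter of astrocytes, was at 0 and 46.2 CPM against 282 and 426 (3.61 ± 0.68, adjusted p = 0.0178). A single cell held 76 of 158 Slc1a2 UMIs at P23, and another 13 of 26 at P19.

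As lists, 3 of 6 astrocyte genes and both tested oligodendrocyte genes rose and 0 fell. The summed astrocyte list was at 38.0 and 269 CPM at E16.5 and P5 and at 813 and 1016 at P19 and P23, and the oligodendrocyte list at 10.9 and 18.9 against 217 and 501. At P132 these sums reached 8749.6 and 5136 CPM, and 49 and 18 of 110 cells held 3 or more UMIs of the list after reduction to 1000 UMIs. At P120 they were 217 and 43.4 CPM. The part of this RNA in the other juvenile and adult differences was not tested beyond leaving out the tenth of cells richest in it (above).

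**Figure D5:**
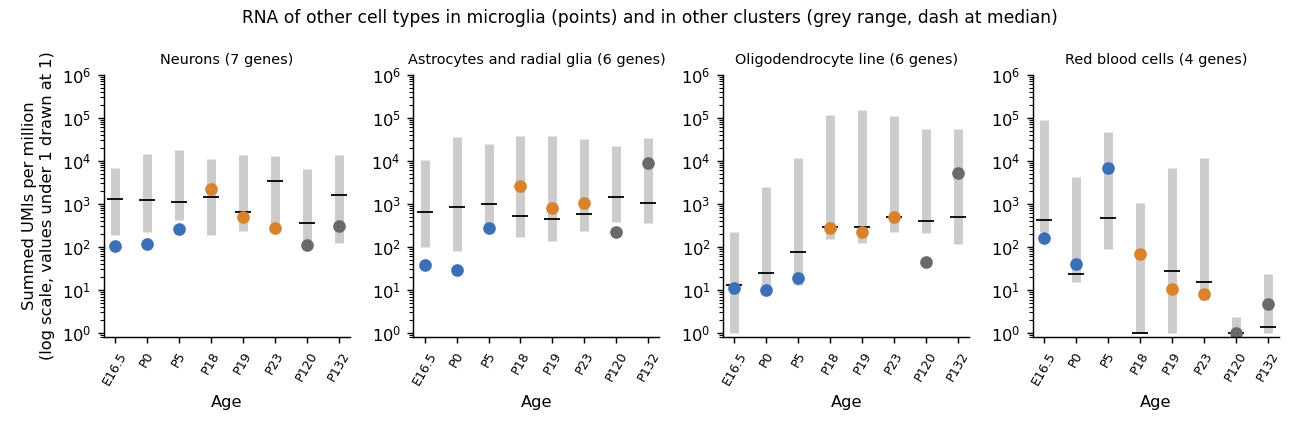
Summed levels of marker lists of 4 other cell types at 8 ages, in CPM on a log axis. Points are microglia, grey bars span the lowest to the highest non-macrophage cluster, and dashes mark their median. Microglia lie above the median for astrocyte RNA at P18, P19, P23 and P132, for oligodendrocyte RNA at P23 and P132, for neuronal RNA at P18, and for blood RNA at P0, P5, P18 and P132.

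Haemoglobin transcripts had large negative fold changes, and most of their P5 UMIs came from 1 cell. Hba-a1 was at 54.3 and 3506 CPM against 0 and 2.69 (-9.43 ± 1.77, adjusted p = 0.0178) and Hbb-bs at 97.7 and 2854 against 0 and 5.39 (-8.30 ± 1.47, adjusted p = 0.0150). At P5 a single cell held 1646 of 1668 Hba-a1 UMIs, and without it the levels were 47.2 and 85.8 CPM. Gm10320 fell from 174 and 88.3 CPM to 10.8 and 2.69 (-4.65 ± 0.76, adjusted p = 0.0122), was at 205 CPM at P18, and lost its call without P23 (adjusted p = 0.0570). Ribosomal protein genes, described after their values were seen, supplied 23.6 to 27.6% of all microglial UMIs (cells not reduced) at the perinatal ages. They supplied 12.7 to 16.4% at the juvenile ages, 23.8% at P120 and 14.6% at P132. Of 86 tested, 81 had a negative log2 fold change (median -0.74), and 1 passed in edgeR and 25 in DESeq2.

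Adult microglia could not be tested against juvenile ones, since P132 was the only adult age with 20 microglia. At P132 P2ry12 (1331 CPM) and Ctsd (3475) were below both P19 and P23, Cx3cr1 (2288) was above both, and Selplg and Tmem119 lay between these juvenile ages. Spp1 was at 4.79 CPM, and Igf1, Lpl and Gpx3 had 0 UMIs. Lysosomal Ctsb, a cathepsin, was at 3005, 2924 and 2512 CPM at the perinatal ages, 274 at P18, 2082 and 1385 at P19 and P23, 977 at P120 and 373 at P132. Age, mouse line, GFP sort and RNA of other types all differ between these ages, and their parts cannot be told apart.

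Variation among single microglia was described at each age. With cells reduced to 1000 UMIs, the variance divided by the mean (the Fano factor, 1 for pure counting) was computed at the 5 ages. It was ranked for the 1269 genes with a mean of 0.1 UMI per cell or more at 3 or more ages. Averaged over the ages at which a gene reached that mean, it was 2 or more for 36 genes (median of all 1.05). The 10 highest were Cst3 (11.6), Apoe (10.4), Actb (8.99), Slc1a2 (8.60), Malat1 (7.42), Fth1 (6.28), mt-Atp6 (5.98), Ftl1 (5.89), mt-Co1 (4.56) and Mt3 (4.30). The factor of Cst3 was 1.14 at E16.5, 3.10 at P5, 9.99 at P19, 16.8 at P23 and 27.1 at P132, while its mean went from 5.24 UMIs at E16.5 to 107 at P23 and 51.7 at P132. Among these 10 genes others led at single ages: Fth1 at E16.5, Apoe at P5 (10.2) and P23 (24.7), and Actb (22.8) at P19. Genes too low for the ranking were not compared at single ages. At P23 1 cell held 82 Apoe UMIs after the reduction and 28.3% of all Apoe UMIs of that age, against a mean of 2.66 UMIs per cell. The astrocyte genes Slc1a2 and Mt3 had factors of 9.24 and 6.17 at P132, and their means leave out E16.5 and P5, where their counts were too low. With 800 UMIs per cell, 31 genes passed and 9 of the leading 10 were shared.

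The change between stages was set against that of endothelial cells of the same ages, to show which changes microglia did not share with another non-neural cell type. The difference of the log2 changes (microglial minus endothelial, age as a block) passed for 144 of 6663 genes (2.16%), 95 above 0 (1.43%) and 49 below (0.735%), with 694 at unadjusted p under 0.05. The age block takes out what both clusters share at an age. These p-values therefore measure how the gap between the 2 clusters varies between ages of a stage, not how levels vary. Junb rose by 2.09 ± 0.37 more in microglia (adjusted p = 7.88e-06), from 233 and 649 CPM to 2569.7 and 3031, while the endothelial cluster was at 468 and 346, then 849 and 544. Cst3 (1.82 ± 0.42, adjusted p = 0.00197), Atf3 (2.90 ± 0.64, adjusted p = 9.95e-04) and Ctsh (1.58 ± 0.44, adjusted p = 0.0224) also had positive differences. Trf, which encodes transferrin, stood at 146 and 275 CPM against 1355 and 701 in microglia and at 462 and 162 against 78.6 and 30.9 in the endothelial cluster (4.71 ± 0.43, adjusted p = 8.70e-24).

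On the negative side, Spp1 had a difference of -11.09 ± 1.70 (adjusted p = 4.04e-08), with 0 endothelial UMIs at E16.5, P5 and P19 and 5 at P23. Lpl (-3.48 ± 0.81, adjusted p = 0.00208), Plin2 (-2.31 ± 0.55, adjusted p = 0.00363) and Apoe (-1.60 ± 0.38, adjusted p = 0.00352) were the other lipid genes called. Of the 16 homeostatic genes 4 were called with a positive difference and 0 with a negative one, at a median difference of -0.09 over the list, and of the 14 immediate early genes 5 and 0, at a median of 0.96. The median of all genes tested was 0.08. The Spp1 call was lost without P23, without the tenth of cells richest in other RNA, with cells reduced to 1000 UMIs (adjusted p = 0.284), with DESeq2 (0.631) and without the age block (0.237). P2ry12 and Cx3cr1 had 0 endothelial UMIs at the perinatal ages, so that their difference rests on a few juvenile UMIs and did not pass (adjusted p = 0.417 and 0.635). Calls fell to 45 without E16.5, 32 without P23, 20 with cells reduced to 1000 UMIs, 10 with DESeq2 and 5 without the age block.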

How the data were processed

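Single-cell counts of UMIs were deposited by the authors, with a table that gives each cell's age, strain, sex and cluster name. Cell Ranger and the mm10 build are named per the submitters' processing notes, with no version. Counts were summed over the microglia of each age with at least 20 such cells. Sums of E16.5 and P5 were compared with those of P19 and P23 in edgeR 4.0.16 (R 4.3.3, TMM scaling, filterByExpr, quasi-likelihood test), with Benjamini-Hochberg adjustment over all genes tested and a threshold of 0.05. The comparison with endothelial sums had age as a block. The script was checked on simulated counts with a fixed spread between sums. The test between stages recovered 100% of changes of 2 log2 units. The comparison with endothelial cells recovered 36% of these and 86% of changes of 3 log2 units, so a gene not called there may still differ. False calls were 5.21% and 5.43% of all calls. Shares were compared over ages by an exact permutation test.

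Doublets were not called. Instead, cells with over 2 times the median UMIs of their cluster and age were left out in an alternative. Cells reduced to 1000 UMIs were drawn at random once, and the smallest cell held 1114 UMIs. Levels of other clusters are sums over their cells at each age. Genes named by rule were the 10 with the largest fold change in each direction among called genes at a mean of 50 CPM or more with no overlap between the stages, 5 in each direction for the comparison with endothelial cells, the 15 genes with the largest ratio to other clusters and the 10 with the highest Fano factor, beside called members of the lists. The members, gene lists and comparisons were chosen with earlier results of these data known. Alternatives changed the scaling, the filter on low counts, the tool (DESeq2 1.42.0), the ages, the cells and the unit summed. Some genes are not reported here.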

Additional observations from a re-analysis of the deposited data

Results flagged for a closer look

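For 144 genes the change between perinatal and juvenile ages differed between microglia and endothelial cells, by the test of the difference itself (edgeR quasi-likelihood, Benjamini-Hochberg adjustment). The 5 with the largest positive difference (microglial minus endothelial, log2) were Apod (7.62, adjusted p = 2.26e-04), Slc1a4 (6.49, adjusted p = 4.62e-05), Dusp2 (6.48, adjusted p = 1.05e-16), Igfbp7 (6.45, adjusted p = 0.00743) and Pdgfrb (6.06, adjusted p = 0.0125). Dusp2, a phosphatase that acts on MAP kinases, was at 16.3 and 33.6 CPM against 86.7 and 94.3 in microglia, and at 136 and 156 against 0 and 8.59 in endothelial cells, and kept its call in the 9 alternatives that gave it an adjusted p, which DESeq2 and the reduction to 1000 UMIs did not. Apod rested on 7 microglial UMIs at the tested ages, all at P19, and lost its call without P19. Slc1a4 lost its call without P23 (difference 0.79). Igfbp7 and Pdgfrb lost theirs without E16.5, P5 or P23, without the tenth of cells richest in other RNA (4.60 and 0.09), with cells reduced to 1000 UMIs and with no age block.

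The 5 with the largest negative difference were Spp1 (-11.09, adjusted p = 4.04e-08), Hbb-bt (-6.84, adjusted p = 6.88e-04), Hba-a1 (-6.82, adjusted p = 3.78e-12), Hbb-bs (-6.02, adjusted p = 1.40e-12) and Ndnf (-5.93, adjusted p = 0.0330). The Spp1 call was lost without P23, where 9 microglial and 5 endothelial UMIs lay, and also with DESeq2, without the tenth of cells richest in other RNA, with cells reduced to 1000 UMIs and with no age block. Ndnf lost its call without E16.5, P5 or P23, with no filter on low counts, with cells reduced to 1000 UMIs and with no age block. Of the 3211 UMIs of the 4 haemoglobin genes in P5 microglia, 1 cell held 98.0%. The endothelial cluster held 25015 such UMIs at P5.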

How the results depend on the processing

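The count of 77 genes between stages became 175 with no filter on low counts, 278 with libraries in place of ages, 188 with 10 microglia per age as the minimum, and 0 both without the tenth of cells richest in RNA of other types and with cells reduced to 1000 UMIs. Leaving out 1 age gave 80 to 302. The P5 and P23 libraries of 1 cell-name prefix gave 575. That setting and the reduction to 1000 UMIs were chosen after seeing the data. The count of 144 against endothelial cells became 84 with no filter, 10 with DESeq2, 20 with cells reduced to 1000 UMIs and 5 with no age block, and leaving out 1 age gave 32 to 119. The share difference was -4.93 percentage points over non-neural clusters and 3.10 without granule and pyramidal cells, and leaving out 1 age gave 0.105 to 2.09. Differences against endothelial cells changed sign for haemoglobin genes, Hbb-bt (2.09) and Hba-a1 (0.76) without cells of very many UMIs, and Hba-a1 (2.33) and Hbb-bs (1.76) without the tenth of cells above. Of 33 called genes named between stages, 33 kept their call with RLE scaling and 17 of 30 tested did without P23, and all kept their direction wherever tested. The named genes were picked on these same cells, so a kept direction is no independent check. Apart from the sample and gene losses that these settings make by construction, the cause of the changes between settings was not tested. No paired analysis was possible because microglia of each age are 1 sample and ages share no replicate number. With 1 age left alone in a stage, that age is assumed to vary like the others. Depth limits P0, P18 and P120, where a count of 0 allows up to 29.7, 205 and 65.1 CPM.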
